A study of Mus musculus with 8 samples.

Results

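Trp53, the gene of the mouse transcription factor p53, and 9 genes that p53 is known to switch on directly were followed in bone marrow-derived macrophages (BMDMs) after knockdown of the long noncoding RNA MAARS. The 10 genes were chosen by their symbols, Trp53, Mdm2, Ccng1, Cdkn1a, Bax, Aen, Phlda3, Zmat3, Sesn1 and Trp53inp1, and each was found once among the 49315 genes of the count table. All 10 passed the filter on low counts, which left 13051 genes tested. The 10 genes and the gene lists below were chosen with earlier results of these data known. BMDMs are macrophages grown from mouse marrow. Here the marrow came from femur and tibia of C57BL/6 mice, whose age and sex the labels do not give, and was cultured with 10 ng/ml macrophage colony-stimulating factor. The control gapmeR group (4 libraries, replicates 2, 5, 6 and 7) received a negative control gapmeR and the MAARS gapmeR group (4 libraries, replicates 9, 11, 13 and 15) received gapmeRs against MAARS, both at 25 nM in the labels and with the same lipid transfection reagent. A gapmeR is a short antisense oligonucleotide that makes RNase H cut the RNA it pairs with. No stress or death stimulus is named for these libraries, and the labels do not say whether the libraries of a group came from separate mice or cultures, so the p-values measure the spread between these libraries, which may be technical.

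p53 is held at low levels in unstressed cells because MDM2, a ubiquitin ligase whose own gene p53 switches on, marks it for destruction. When DNA damage or other stress stabilises the protein, p53 binds paired copies of a short DNA element near its target genes, and the products stop the cell cycle, repair DNA, restrain growth or start cell death. Macrophages use the same response, and p21, the product of Cdkn1a, is also part of their exit from proliferation. The amount of p53 is set mostly at the level of the protein, which RNA-Seq does not measure.

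The p53 element is built from 2 copies of a decamer known as the p53 half-site. RefSeq promoter windows on GRCm38.p6, from 250 bases before to 50 after a start site, were held for 8 of the 10 genes, with 11 start sites in all. Zmat3 and Trp53inp1 were not among them. An exact half-site, whose reverse complement is again a half-site so that a single scan covers both strands, lay in 8 of these 11 windows (72.7%) and 7 of the 8 genes, as it did in 2745 of the 32851 windows of all genes (8.36%). The stretches around them let the genes be compared at this decamer, which alone is only a part of the element. They are shown with the half-sites in capitals, each read 5′ to 3′ along its gene and lying before the start site used:
Cdkn1a (chr17:29090881-29090962, plus strand): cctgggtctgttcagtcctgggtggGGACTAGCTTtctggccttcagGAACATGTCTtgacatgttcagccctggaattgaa
Ccng1 (chr11:40755437-40755496, minus strand): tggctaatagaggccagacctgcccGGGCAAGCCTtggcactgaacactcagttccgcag
Mdm2 (chr10:117710910-117710969, minus strand): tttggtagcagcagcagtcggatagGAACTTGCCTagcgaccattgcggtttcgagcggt
Trp53 (chr11:69580259-69580318, plus strand): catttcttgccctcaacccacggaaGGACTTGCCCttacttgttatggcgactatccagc
Bax (chr7:45467065-45467124, minus strand): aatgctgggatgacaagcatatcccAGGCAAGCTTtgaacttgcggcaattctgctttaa
Aen (chr7:78895927-78895956, plus strand): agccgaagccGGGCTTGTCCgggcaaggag
Sesn1 (chr10:41887241-41887300, plus strand): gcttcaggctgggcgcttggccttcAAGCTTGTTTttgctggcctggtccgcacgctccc
Positions below are those of the first base of a half-site, with 0 for the start site. Cdkn1a held 2 exact half-sites, at -73 and -51 from its upstream start, within the 13 bases of spacing allowed between the members of a pair. Such an exact pair was found in 1 of the 11 windows and in 24 of all 32851 (0.0731%). With at most 1 mismatch in the pair, outside the C and G of the core, 2 of the 11 windows qualified, those of Cdkn1a and Ccng1, against 206 of all windows (0.627%). In Cdkn1a this scan also gave a directly adjoining pair, at -51 and -41, besides the exact pair. The single half-sites lay at -185 in Ccng1, -186 in Mdm2, -75 in Trp53, -201 in Bax and, from the downstream starts, at -121 in Aen and -173 in Sesn1. In Aen the same decamer lies at 10 from the upstream start, and 30 bases are shown there. The windows of Phlda3, of the upstream start of Sesn1 and of the downstream start of Cdkn1a held none. These matches describe letters in short windows and say nothing of binding. The best known p53 sites of Mdm2 lie in its first intron, outside the window.

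**Figure D1:**
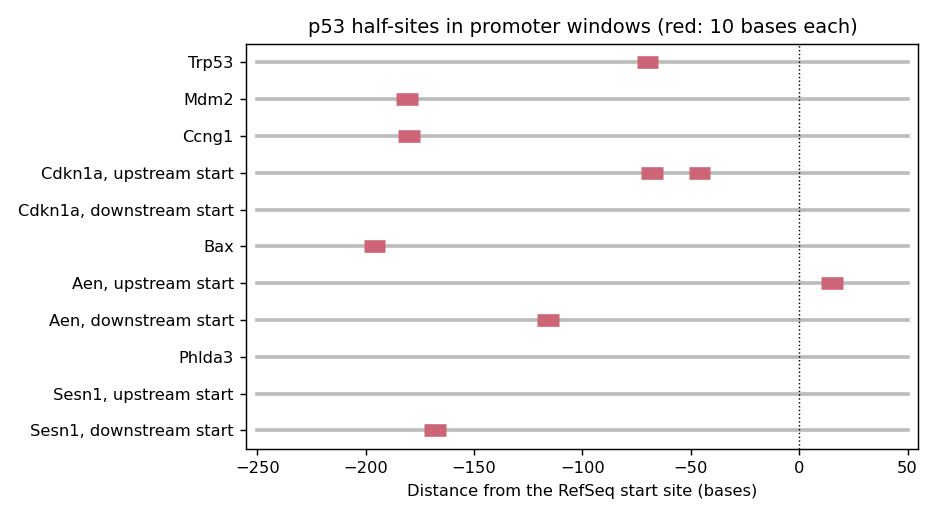
Exact p53 half-sites (red, 10 bases long) in the RefSeq promoter windows of the p53 genes, one grey line per start site, with the distance from the start site in bases on the horizontal axis. Cdkn1a alone has 2 half-sites in a window, at -73 and -51, and 3 of the 11 windows have none.

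The libraries held 19287279 to 20567123 counts in the control group and 20839671 to 24541205 in the MAARS gapmeR group. Levels are given as CPM, the count of a gene relative to the total of its library after scaling between libraries with TMM factors. MAARS (Gm14461, ENSMUSG00000054510, chromosome 2, 78237547 to 78302230, plus strand, GRCm38) was measured at 12.2, 15.1, 12.98 and 12.2 CPM in the controls and at 7.71, 6.41, 7.31 and 5.85 CPM after MAARS gapmeR. The groups did not overlap, and the level was 48.1% lower (log2 fold change -0.95, SE 0.112, adjusted p = 5.8e-05). The 8 macrophage markers examined, among them Adgre1, Csf1r, Cd68 and Lyz2, were present in every library, with a summed level of 13840 to 17120 CPM in the controls and 17010 to 20240 CPM after knockdown, and 5 of them were higher and 2 lower, where 21.3% of all genes were called higher and 24.0% lower. Csf1r, the receptor of the growth factor in the medium, was higher (log2 fold change 0.45), while Cd68 (-0.34) and the Fc receptor gene Fcgr1 (-2.09) were lower. Of 24 markers of other cell types, 13 stayed under 1 CPM in every library, including those of T, B, NK and red cells, and the summed level was 507.4 to 1172 CPM in the controls and 754.5 to 1289 CPM after knockdown, mostly from the collagen genes Col1a1 and Col1a2, which were not called. Kdr, an endothelial marker, was the 1 of the 11 tested that was called (log2 fold change -1.54). The part of these shifts in the values below was not tested, and in bulk RNA fewer cells of a type and less RNA per cell cannot be told apart.

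The message of p53 itself was not called after MAARS knockdown, while 6 of the 9 targets followed here were lower and 2 were higher. Among the 40 other tested targets given below, 11 were lower and 9 higher. Of the 10 genes, 6 were lower (Mdm2, Ccng1, Cdkn1a, Bax, Aen and Phlda3), 2 were higher (Sesn1 and Trp53inp1) and 2 were not called (Trp53 and Zmat3) at an adjusted p under 0.05 in edgeR's quasi-likelihood test. The 8 calls stand against 45.4% of all genes tested called in either direction, the 6 lower against 24.0% called lower and the 2 higher against 21.3% called higher. The CPM of the groups did not overlap for the same 8 genes, as for 42.1% of all genes tested. No member reached an absolute log2 fold change of 1.5, the size used in the study's methods, which 2.20% of all genes did. The median log2 fold change was -0.29 over the 10 genes and 0.01 over all genes. With upper-quartile scaling the share of higher among called genes rose from 47.0% to 60.4%, and the members counted 5 lower and 2 higher, Phlda3 being the call lost.

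**Figure D2:**
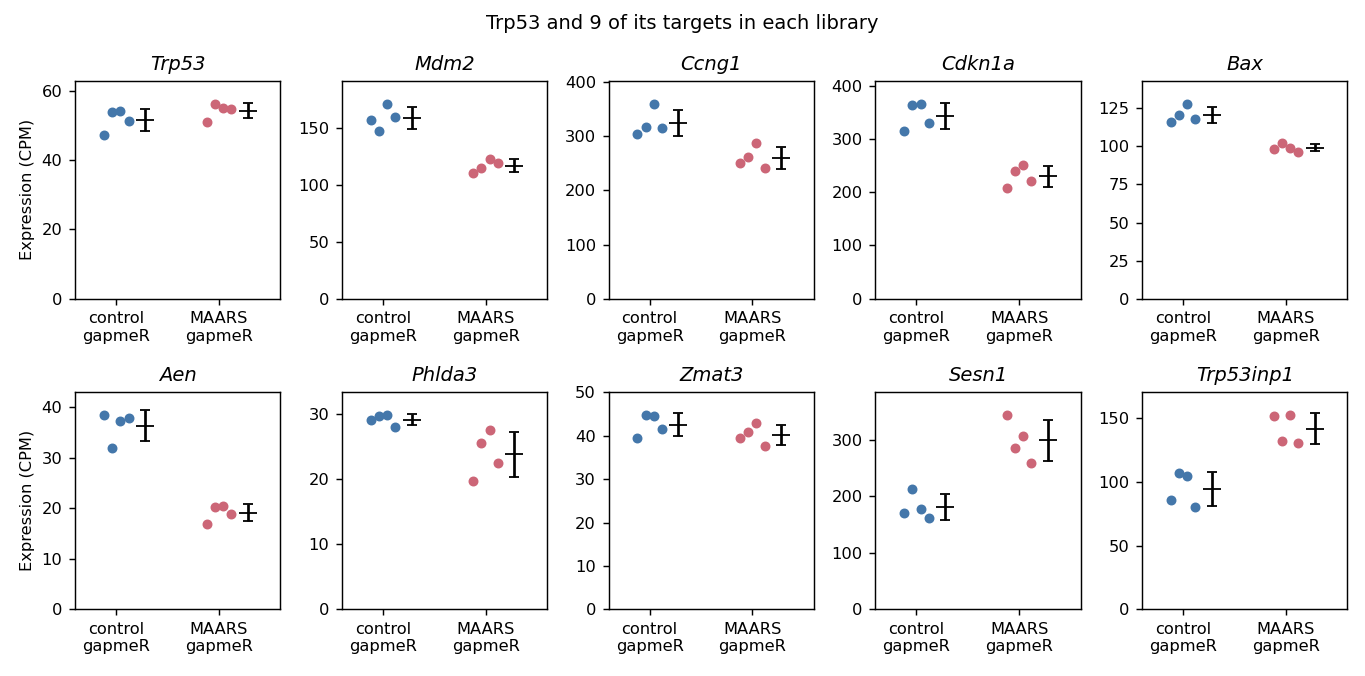
Expression of each gene (CPM, vertical axes from 0) in the 4 control gapmeR and 4 MAARS gapmeR libraries, one point per library, with the mean and SD in black beside them. Points of the groups overlap in Trp53 and Zmat3, lie lower after MAARS gapmeR in 6 genes and higher in Sesn1 and Trp53inp1.

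Trp53 (ENSMUSG00000059552, chromosome 11, 69580359 to 69591873, plus strand) was measured at 47.3, 53.9, 54.1 and 51.2 CPM in the controls and at 51.1, 56.1, 55.1 and 54.8 CPM after MAARS gapmeR. The ranges overlapped, and the lowest library of each group set much of its spread. The log2 fold change was 0.07 with a 95% interval of -0.05 to 0.19 (SE 0.056, adjusted p = 0.318), so a change of more than 0.19 in either direction lay outside the interval. Each value rested on 924 to 1410 counts. The relatives of p53 were close to absent. Trp63, which acts in epithelia, had at most 2 counts in a library, and Trp73 had 1 count in 1 library.

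Mdm2 and Ccng1, the 2 of the 10 genes whose products restrain p53, were both lower. Mdm2 (ENSMUSG00000020184, chromosome 10, 117688875 to 117710758, minus strand), the ubiquitin ligase of the feedback loop, was measured at 157, 147, 171 and 160 CPM in the controls and at 110.5, 114.5, 123 and 119 CPM after MAARS gapmeR. Every knockdown library lay below every control. Mdm2 was 26.4% lower (log2 fold change -0.44, SE 0.0544, adjusted p = 7.51e-05). Ccng1 (ENSMUSG00000020326, chromosome 11, 40748552 to 40755311, minus strand) encodes cyclin G1, which brings a phosphatase to MDM2 and so helps to limit p53. It stood at 304, 317, 359 and 315 CPM in the controls and at 250.2, 261, 288 and 241 CPM after knockdown. The groups did not overlap, and the gene was 19.7% lower (log2 fold change -0.32, SE 0.0668, adjusted p = 0.00269).

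Cdkn1a (ENSMUSG00000023067, chromosome 17, 29090976 to 29100727, plus strand) encodes p21, the inhibitor of cyclin-dependent kinases through which p53 arrests the cell cycle, and its window held the exact pair of half-sites shown above. Its level was 315, 364, 365 and 330 CPM in the controls and 207, 239, 251 and 221 CPM after MAARS gapmeR. The highest knockdown library stayed below the lowest control, and the mean was 33.1% lower (log2 fold change -0.58, SE 0.0689, 95% interval -0.73 to -0.43, adjusted p = 5.83e-05). Of its 3553 exon bases, 7.68% overlap AC167363.2 on the opposite strand, and the strand setting of the counting was not given in the sources used here.

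Aen, Bax and Phlda3, whose products act in cell death, were lower. Of the members with a role in both death and stress, Zmat3 was not called and Trp53inp1 was higher, as given below. Aen (ENSMUSG00000030609, chromosome 7, 78895854 to 78911209, plus strand) encodes a nuclease that cuts DNA and RNA in dying cells, and it had the largest absolute log2 fold change of the 10 genes, while Sesn1 changed more in percent. It was measured at 38.5, 31.9, 37.3 and 37.9 CPM in the controls and at 16.8, 20.2, 20.5 and 18.9 CPM after MAARS gapmeR. All knockdown libraries lay well under the lowest control, and the gene was 47.4% lower (log2 fold change -0.93, SE 0.0806, 95% interval -1.10 to -0.75, adjusted p = 8.42e-06). Bax (ENSMUSG00000003873, chromosome 7, 45461697 to 45466898, minus strand) encodes the BCL2 family protein that opens the outer mitochondrial membrane. It was measured at 116, 120.5, 128 and 118 CPM in the controls and at 98.3, 102, 99.1 and 96.6 CPM after knockdown. Its groups were narrow and did not overlap, and a difference of 17.8% passed the test (log2 fold change -0.28, SE 0.0442, adjusted p = 0.000382). Gm45808 covers 12.2% of the 1576 exon bases of Bax on the same strand, with 194 bases identical between their transcripts.

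Phlda3 (ENSMUSG00000041801, chromosome 1, 135766119 to 135769136, plus strand) encodes a small lipid-binding protein that keeps the survival kinase AKT from the membrane. It was measured at 29.1, 29.8, 29.9 and 28.04 CPM in the controls and at 19.8, 25.6, 27.7 and 22.5 CPM after MAARS gapmeR. The controls lay close together and the knockdown libraries were spread out, the highest of them just under the lowest control. The gene was 18.1% lower (log2 fold change -0.29, SE 0.0917, adjusted p = 0.0238), and the call was lost without MAARS gapmeR replicate 15 (log2 fold change -0.26, adjusted p = 0.0645) and with upper-quartile scaling (-0.23, adjusted p = 0.0641). Zmat3 (ENSMUSG00000027663, chromosome 3, 32334792 to 32366014, minus strand) encodes a zinc finger RNA-binding protein that acts in p53-dependent growth suppression. It was measured at 39.4, 44.7, 44.6 and 41.5 CPM in the controls and at 39.5, 40.7, 42.9 and 37.5 CPM after knockdown. The groups overlapped over most of their range, and the log2 fold change of -0.08 had a 95% interval of -0.22 to 0.05 (adjusted p = 0.29).

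Sesn1 and Trp53inp1 went the opposite way. Sesn1 (ENSMUSG00000038332, chromosome 10, 41809935 to 41908424, plus strand) encodes sestrin 1, which restrains the growth kinase complex mTORC1 and lowers oxidative stress. It was measured at 171.5, 213, 179 and 162 CPM in the controls and at 344, 285, 308 and 260.0 CPM after MAARS gapmeR. Every knockdown library exceeded the highest control, and the gene was 65.1% higher (log2 fold change 0.72, SE 0.096, 95% interval 0.51 to 0.93, adjusted p = 0.000128). Trp53inp1 (ENSMUSG00000028211, chromosome 4, 11156431 to 11174379, plus strand) encodes a protein of cell death and stress that promotes p53 phosphorylation and autophagy. Its level was 85.9, 107, 105 and 80.2 CPM in the controls and 152, 131.5, 152 and 130.5 CPM after knockdown. The groups were again apart, and the gene was 49.9% higher (log2 fold change 0.58, SE 0.0943, 95% interval 0.38 to 0.79, adjusted p = 0.000474). Both genes are also known as targets of FOXO transcription factors, whose part in these values was not tested.

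**Figure D3:**
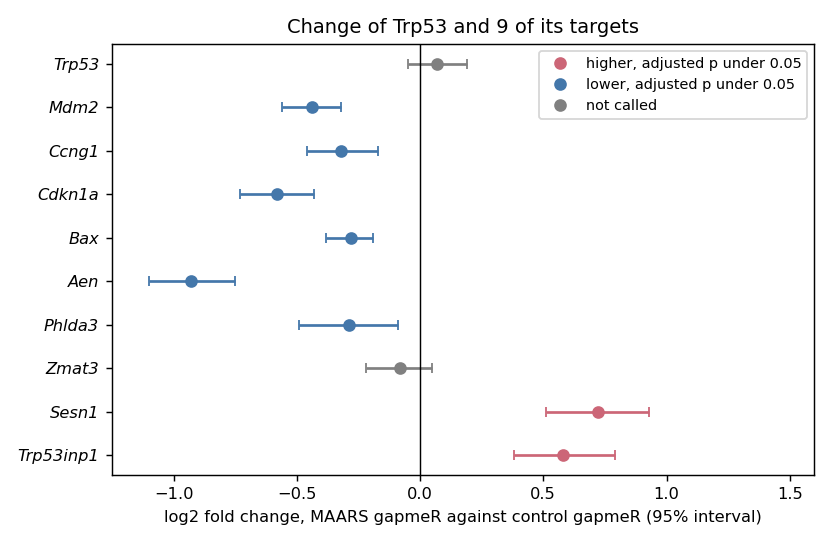
Log2 fold change of each gene after MAARS gapmeR against control gapmeR (horizontal axis) with its 95% interval from edgeR's test, coloured by call. The intervals of Trp53 and Zmat3 span 0, that of Aen lies farthest to the left (-1.10 to -0.75) and that of Sesn1 farthest to the right (0.51 to 0.93).

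Levels of the genes were compared with each other only per kilobase of exon. In the controls Cdkn1a stood at 96.6 ± 6.96 CPM per kilobase (SD, n = 4) and Ccng1 at 92.1 ± 6.82, which did not differ beyond their spread. Bax followed at 76.4 ± 3.26, then Sesn1 at 45.5 ± 5.57 and Mdm2 at 31.2 ± 1.93. Phlda3 stood at 18.7 ± 0.552, Trp53inp1 at 14.6 ± 2.06 and Trp53 at 12.8 ± 0.786, of which the last pair overlapped within their SD. Aen (6.27 ± 0.522) and Zmat3 (3.72 ± 0.224) were lowest. After MAARS gapmeR the upper end of the order differed. Sesn1 stood first by its mean at 75.1 ± 8.95 CPM per kilobase, not separated from Ccng1 at 74.0 ± 5.82. Cdkn1a (64.6 ± 5.4) followed, with libraries that overlapped those of both, and then Bax (62.8 ± 1.44), not separated from Cdkn1a. Mdm2 (22.99 ± 1.08) and Trp53inp1 (21.9 ± 1.87) overlapped, and Aen at 3.30 ± 0.287 stood beside Zmat3 at 3.51 ± 0.197. Phlda3 (15.3 ± 2.22) and Trp53 (13.4 ± 0.542) were also within their spread of each other.

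The ratio of a target's counts to those of Trp53 within a library does not depend on the scaling between libraries. Ratios were taken for the 9 targets and compared by a two-sided exact permutation test over the 70 assignments of 4 and 4 libraries, whose smallest possible p is 0.0286. All 9 reached that p, with 7 lower and 2 higher. The adjusted p over the 9 ratios was also 0.0286, as it must be where all 9 p-values are equal. The share of all genes whose ratio to Trp53 separates the groups was not computed. On CPM alone the groups already did not overlap for 8 of these 9 targets, and for 42.1% of all genes tested. The calls of Zmat3 and Phlda3 were lost whichever control library was left out (adjusted p up to 0.0857 and 0.0643). The ratio of Cdkn1a to Trp53 was 6.66, 6.74, 6.74 and 6.44 in the controls and 4.06, 4.27, 4.55 and 4.04 after MAARS gapmeR, a log2 difference of -0.65. The ratio for Mdm2 was 3.08 ± 0.252 (SD, n = 4) in the controls and 2.15 ± 0.0823 after knockdown, and that for Aen was 0.708 ± 0.0928 and 0.352 ± 0.0185. The controls thus held more counts of these 3 targets per count of Trp53 in every library. The ratio for Sesn1 was 3.51 ± 0.352 in the controls and 5.54 ± 0.87 after knockdown, and that for Trp53inp1 was 1.82 ± 0.186 and 2.61 ± 0.303. Zmat3, whose level was not called, had ratios of 0.824 ± 0.0102 and 0.741 ± 0.0447, a log2 difference of -0.16. The log2 fold changes of Zmat3 (-0.08) and of Trp53 (0.07), neither of them called, both enter this difference. The log2 differences were -0.39 for Ccng1, -0.36 for Bax and -0.37 for Phlda3. All 9 ratios share their denominator and are not independent of each other.

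**Figure D4:**
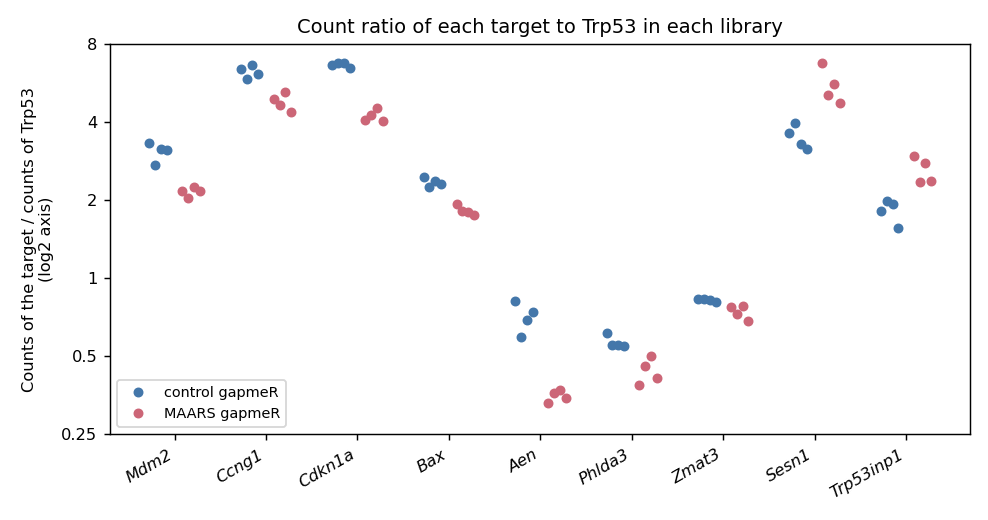
Counts of each target divided by counts of Trp53 (vertical axis, log2 scale), one point per library, controls in blue and MAARS gapmeR libraries in red. For every target the 4 control points and the 4 MAARS gapmeR points are apart, upward in Sesn1 and Trp53inp1 and downward in the other 7. The share of all genes apart by this ratio was not computed.

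A wider set of 44 established p53 targets outside the 10 genes was counted in 4 lists by function, and 40 were tested. In all, 20 were called, 9 higher and 11 lower, or 50% against the 45.4% of all genes, with a median log2 fold change of -0.05. This share lay near that of all genes. The balance of directions turned with upper-quartile scaling, to 11 higher and 7 lower. Perp, Rprm, Gls2 and Sco2 were too low to test. Among 12 tested cell death targets 3 were lower and 1 was higher (33.3% called). The 1 higher call was lost without control replicate 2, 6 or 7 and without MAARS gapmeR replicate 9, 13 or 15, and there were 2 without MAARS gapmeR replicate 11 and with upper-quartile scaling. Pmaip1, which encodes the BH3-only death protein NOXA, was measured at 31.2, 33.7, 33.9 and 33.3 CPM in the controls and at 17.6, 19.4, 20.5 and 20.7 CPM after MAARS gapmeR. Its groups were far apart (log2 fold change -0.75, SE 0.0648, adjusted p = 8.27e-06). Steap3, a ferrireductase gene, was lower by a log2 fold change of -0.30, and Ei24, an autophagy gene that 6.66% overlaps Gm26787 on the opposite strand, by -0.16, a call lost with upper-quartile scaling (-0.10, adjusted p = 0.0681).

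Among 12 tested targets in arrest and growth control 4 were higher and 4 lower (66.7% called, against 45.4% of all genes), and 2 were higher without control replicate 5 or 6 and without MAARS gapmeR replicate 11 or 13. Plk2, a polo-like kinase gene, was measured at 169, 165, 161 and 158 CPM in the controls and at 93.4, 116.5, 106 and 90.5 CPM after knockdown. It was clearly separated by group (log2 fold change -0.68, SE 0.0729, adjusted p = 2.76e-05). Rap2b, a small GTPase gene, was lower (log2 fold change -0.36), and 58.3% of its exon bases overlap genes on the opposite strand. Ckap2, whose product binds the mitotic spindle, was higher (log2 fold change 1.11, SE 0.194, adjusted p = 0.000792). Its controls stood at 14.4, 10.65, 7.30 and 6.63 CPM, highest in replicate 2, as was the sum of the cell cycle genes below. Ckap2 is counted here among the higher targets. Among 8 tested DNA repair targets 2 were higher and 2 lower (50% called). In 9 of the 16 alternatives 1 was lower, namely DESeq2, no filter, upper-quartile scaling, and without control replicate 2, 5 or 6 or MAARS gapmeR replicate 9, 11 or 15. The Fanconi anaemia gene Fancc (0.71) and the damage recognition gene Ddb2 (0.70) were higher by log2 fold change, both at a low level, with group means of 2.81 to 5.68 CPM, and with 18.6% and 23.8% of their exon bases overlapped on the opposite strand, and the ribonucleotide reductase gene Rrm2b was lower (-0.34). Among 8 tested targets in metabolism and redox 2 were higher and 2 lower (50% called), with 1 lower under upper-quartile scaling and without control replicate 2 or 6 or MAARS gapmeR replicate 9, 11 or 15. Ephx1, an epoxide hydrolase gene, rose from 22.9 ± 4.43 to 46.7 ± 3.96 CPM (SD, n = 4), and the lipase gene Abhd4 rose by a log2 fold change of 0.32. Tigar, whose product lowers glycolytic flux, fell from 19.0 ± 0.857 to 13.2 ± 1.58 CPM (log2 fold change -0.53, adjusted p = 0.000633).

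Regulators that act on p53 itself moved in both directions. The list of inhibitors and ubiquitin ligases also holds genes of other roles, Usp7, Usp10 and Cdkn2a. Of its 10 tested genes 3 were higher and 3 lower (60% called, against 45.4% of all genes), with a median log2 fold change of 0.00. With upper-quartile scaling, and without control replicate 6, 1 was lower. Mdm4, the partner of MDM2 that masks the activation domain of p53, was measured at 45.0, 43.7, 46.5 and 44.8 CPM in the controls and at 55.4, 50.7, 54.3 and 58.8 CPM after MAARS gapmeR. Mdm4 was thus higher in all 4 knockdown libraries (log2 fold change 0.28, SE 0.0539, adjusted p = 0.00136) where Mdm2 was lower. Trim24, a p53 ubiquitin ligase gene, was higher (0.30), and Usp7, which encodes the deubiquitinase of MDM2 and p53, was lower (-0.22). Of 18 tested genes listed as activating kinases and cofactors, 3 were higher and 5 lower. This was 44.4% against the 45.4% of all genes, with a median log2 fold change of -0.14. Daxx, a histone chaperone gene of PML nuclear bodies, was measured at 89.9, 111, 123 and 120.4 CPM in the controls and at 40.2, 45.6, 49.9 and 41.4 CPM after knockdown. No library of either group came near the other group (log2 fold change -1.33, SE 0.0992, adjusted p = 5.27e-06). Pml, the gene of the scaffold of those bodies, was also lower (log2 fold change -0.61, SE 0.0838, adjusted p = 0.000162), and Rpl11, whose free ribosomal protein binds MDM2, was higher (0.24).

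Most of the listed genes of the cell division cycle, which p53 is known to hold down through p21 and the DREAM repressor complex, were higher. Whether p53, p21 or DREAM had a part in this was not tested. In bulk RNA more dividing cells and more RNA per cell cannot be told apart. Of 18 tested genes 15 were higher and none lower (83.3% called, against 21.3% of all genes called higher), with a median log2 fold change of 0.88. The groups did not overlap for 12 of the 18, against 42.1% of all genes tested. The list was chosen with earlier results of these data known, so these shares are a description. Their summed level was 794, 565, 405 and 488 CPM in the controls and 905, 1110, 959 and 955 CPM after MAARS gapmeR. Control replicate 2 came nearest to the knockdown libraries, and the controls were more widely spread than the knockdown libraries. Ccnb2, the gene of cyclin B2, was measured at 29.8, 22.8, 10.7 and 12.1 CPM in the controls and at 54.2, 60.4, 50.6 and 52.96 CPM after knockdown (log2 fold change 1.53, SE 0.249, adjusted p = 0.000499). The survivin gene Birc5 (log2 fold change 1.06, adjusted p = 0.000427) and the spindle checkpoint gene Bub1b (0.91, adjusted p = 0.00056) were higher without overlap between groups. Mybl2 (0.32), E2f1 (-0.14) and Mcm5 (0.06), named here after their values were seen, were the 3 that were not called.

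**Figure D5:**
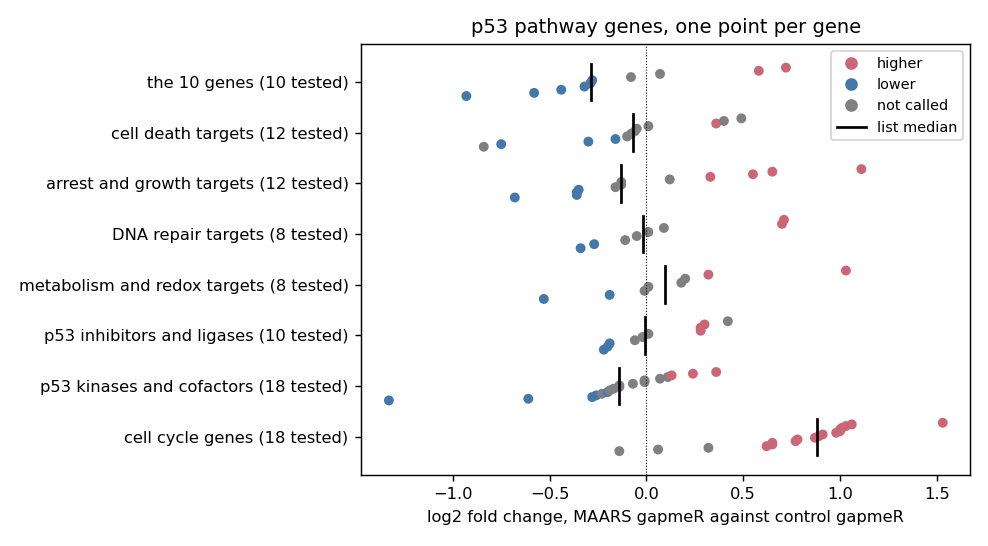
Log2 fold change after MAARS gapmeR against control gapmeR (horizontal axis) of the 10 genes and of the wider p53 pathway lists, one point per tested gene, coloured by call, with the list median as a black bar. The median lies at -0.29 for the 10 genes, between -0.14 and 0.09 for the 6 lists of targets and regulators and at 0.88 for the cell cycle genes.

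The 3 genes whose log2 CPM followed that of Trp53 most closely over the 8 libraries, of all genes tested, were 1110008L16Rik (Pearson r = 0.970), the transcription factor gene Elk1 (r = 0.945) and the zinc finger gene Rbak (r = 0.936). None of the 3 was called, with log2 fold changes of 0.12, 0.05 and 0.17. These values are a description of 8 libraries that share their scaling, and the 3 were picked as the highest.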

How the data were processed

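RNA was ribodepleted and sequenced as paired reads of total RNA (HiSeq2500). The authors trimmed reads with Trimmomatic 0.36, aligned them with STAR 2.5.2b to mm10 with Ensembl transcripts, and made the deposited raw counts per gene with featureCounts (Subread 1.5.2). Strand setting, multimapping reads and the counting of fragments or reads are not given in the sources used here. All 8 count columns were used.

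Counts were analysed in R 4.3.3 with edgeR 4.0.16: filterByExpr (minimum count 10, total 15), TMM, glmQLFit and glmQLFTest, two-sided, with Benjamini-Hochberg adjustment over 13051 genes, called at an adjusted p under 0.05. DESeq2 1.42.0, limma 3.58.1 (voom) and sva 3.50.0 (1 surrogate variable) served alternatives, and the procedure was tested on simulated data. Totals of 19287279 to 24541205 counts set the precision. Replicates of a group differed beyond counting noise (chi-square per gene 4.24 to 15.1). GENCODE M21 (GRCm38) gave exon lengths, positions and overlaps for 48970 of 49315 genes, and RefSeq the promoter windows. A scan of wider regions was not run.

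The members and gene lists were chosen with earlier results of these data known. Named are the members, MAARS, from each list the 3 lowest p-values, and the 3 most like Trp53, with exceptions marked. Some low-count genes have no test, and bases shared between Zmat3 and 6 other genes run to at most 142.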

Additional observations from a re-analysis of the deposited data

How the results depend on the processing

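Under the 16 alternatives run (scaling by RLE or upper-quartile factors, the tests of limma-voom and DESeq2, edgeR with a robust prior or 1 surrogate variable, every gene with a count or those averaging 10 or more, and each of the 8 libraries left out), 5 to 6 of the 10 genes were lower and 2 were higher, and none passed the fold threshold of 1.5. Of the calls of named genes, those of Phlda3 and Ei24 changed, as given beside them. The log2 fold change of Trp53 ran from 0.04 to 0.13 (adjusted p 0.0645 to 0.603) and that of MAARS from -1.01 to -0.88. Upper-quartile factors moved the wider targets from 11 lower and 9 higher to 7 lower and 11 higher, and the regulators from 8 lower and 6 higher to 5 lower and 7 higher, and shifted the log2 fold changes of all genes by a median of 0.06. The cause was not tested. With each library left out, 8 to 11 wider targets were lower and 6 to 8 higher, 5 to 8 regulators were lower, the 5 without control replicate 6, and 5 to 6 higher, and 15 to 16 cell cycle genes were higher. With a library left out, the exact test can reach no p below 0.0286, and the log2 difference of the ratio to Trp53 ran from -0.18 to -0.12 for Zmat3 (adjusted p 0.0286 to 0.0857) and from -0.44 to -0.31 for Phlda3 (0.0286 to 0.0643). The other 7 ratios kept their direction and side of the threshold, also with 0.5 added to each count. No paired analysis was possible because the groups share no replicate numbers. No group of 4 libraries held a value that stood apart by Dixon's test among the 64 groups examined for the named genes.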
